A study of Mus musculus with 5 samples.

Results

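The cytosolic ribosomal protein genes of mouse myeloid progenitors were compared between BcorΔE9-10 and BcorWT animals. Members were the protein-coding genes with a symbol of the Rpl or Rps series, together with Rplp0, Rplp1, Rplp2, Rpsa and Fau, which gave 84 of the 52550 genes in the count table. Of these, 83 had a count in at least 1 library and 82 were tested after the filter on low counts. Genes named as copies of a member (symbols ending in -ps and a number, 291 genes) were not members and served only to examine shared reads.

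Transcript ends were sequenced (QuantSeq 3′ RNA-seq of polyadenylated transcripts) from Lin-cKIT+Sca-1- bone marrow cells, called KL cells, a sorted population of committed myeloid progenitors. The BcorΔE9-10 group (n = 3) had the genotype scl-Cre-ERT +; Bcorfl/y and the BcorWT group (n = 2) scl-Cre-ERT +; Bcorwt/y, so by the labels controls carried the same Cre transgene. The text of the study describes its controls more broadly, as littermates with either the floxed allele or the Cre alone. Bcor is a subunit of a Polycomb repressive complex and is encoded on the X chromosome, so these males carry 1 allele. All mice received tamoxifen at 1 mg per day for 5 days, at 3 to 6 months of age, and cells were collected 20 weeks later. The Cre is driven in haematopoietic stem cells, so progenitors carry the deletion only as descendants of stem cells in which exons 9 and 10 were removed. The labels do not say whether each library came from a separate mouse, so p-values measure only the spread between these libraries.

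Ribosomal proteins assemble with ribosomal RNA into the small subunit, which decodes messenger RNA, and the large subunit, which joins amino acids. Their transcripts are abundant and begin with a C followed by a run of pyrimidines, the terminal oligopyrimidine (TOP) element, through which the kinase complex mTORC1 adjusts their translation together. Loss of 1 copy of several of these genes causes Diamond-Blackfan anaemia, and loss of RPS14 contributes to the anaemia of myelodysplastic syndrome with a deletion on the long arm of chromosome 5. Counts of transcripts measure neither that translation nor the number of ribosomes.

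The pyrimidine run that these transcripts share was looked for around the annotated starts in RefSeq (build GRCm38.p6), in windows of 30 bases, 15 on each side of the start. Windows were held for 64 of the 84 members, and Rpl17, Rplp1, Rpl30 and Rps14 are among the 20 that had none here. A C followed by at least 5 bases that are each C or T stood on the coding strand of 37 of the 64 members (57.8%), against 6883 of all 27025 genes with a window (25.5%). On the opposite strand the same run stood in 6 members (9.38%) and in 28.6% of all genes. The fixed letters CTTTCC, which overlap such runs, were on the coding strand of 10 members (15.6%) and of 1.67% of all genes, and on the opposite strand of 0 members and 1.48% of all genes. The following windows are shown because they belong to members described below, some with a run and some without. They are written 5′ to 3′ with the run in capitals.
Rps24 (chr14:24490663-24490692, plus strand): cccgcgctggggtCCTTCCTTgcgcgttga
Rps27 (chr3:90213634-90213663, minus strand): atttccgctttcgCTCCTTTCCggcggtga
Rplp2 (chr7:141447636-141447665, plus strand): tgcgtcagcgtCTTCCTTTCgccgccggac
Rps6 (chr4:86857353-86857382, minus strand): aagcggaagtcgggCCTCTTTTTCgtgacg
Rpl38 (chr11:114668565-114668594, plus strand): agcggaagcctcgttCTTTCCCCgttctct
Rps19 (chr7:24884898-24884927, plus strand): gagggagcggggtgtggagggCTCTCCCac
Rpl5 (chr5:107900513-107900542, plus strand): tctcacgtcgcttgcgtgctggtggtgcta
Rpl11 (chr4:136053379-136053408, minus strand): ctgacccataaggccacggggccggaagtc
Rps24 has 2 starts in the table and Rps19 has 3, of which one with a run is shown for each. Rpl5 and Rpl11 hold no run around the single start listed for each, and a start that is annotated some bases away would not show one. Among the tested members with a window, the median log2 fold change between genotypes was 0.11 (quartiles -0.03 to 0.17, n = 36) with a run and -0.01 (quartiles -0.10 to 0.06, n = 26) without one. This split was made after the fold changes were known and was given no test.

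Total counts per library ranged from 5998924 to 8303999, and levels below are CPM (counts per 1000000 counts) after scaling by TMM factors, compared with limma on voom values, where p-values were adjusted by Benjamini-Hochberg for the 11766 genes tested. Bcor itself read 23.2, 27.4 and 21.6 CPM in BcorΔE9-10 and 11.8 and 16.2 CPM in BcorWT, but transcript ends do not read the removed exons, so this does not check the labels. Markers of the KL gate were present in every library, with a summed level of 7012 to 8309 CPM in BcorΔE9-10 and 7492 to 8278 CPM in BcorWT, and Kit and Myb, 2 of its 8 genes, were higher in BcorΔE9-10. Markers of other cell types moved with the genotype, although the cells were depleted of lineage-positive cells before the sort and gated as Lin-, which should remove most mature cells. The summed level of 10 genes of maturing neutrophils was 149640 to 173550 CPM in BcorΔE9-10 against 216250 to 228655 CPM in BcorWT, with 6 of 10 genes lower. The sum of 10 basophil, mast cell and eosinophil genes was 588 to 853 against 1304 to 1611 CPM, with 6 lower and 1 higher. The sum of 12 erythroid genes was 128, 197 and 325 CPM against 72.7 and 119 CPM, with 1 of 8 tested genes called higher, 7 at an unadjusted p under 0.05 and a median log2 fold change of 1.65, while limma called 0 of 7 lymphoid, 5 megakaryocyte and 5 macrophage genes tested, with 2, 1 and 0 at an unadjusted p under 0.05, and the B-cell gene Ms4a1 was at 0 throughout. The part of this makeup in any result below was not tested, and in sorted populations fewer cells of a type and less RNA per cell cannot be told apart.

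The question was whether loss of Bcor exons 9 and 10 goes with a change of the genes that encode the ribosome. Of the 82 members tested, 3 had an adjusted p-value under 0.05 (3.66%), whereas 10.1% of all genes tested did. Rpl17 and Rps24 were higher in BcorΔE9-10 (2 of 82, against 6.02% of all genes) and Rplp1 was lower (1 of 82, against 4.09%). Most members are abundant, and of the 79 with a mean of at least 100 CPM these 3 were called (3.80%), against 22.2% of the 1349 other genes at that level. The median log2 fold change of the members was 0.00 (quartiles -0.08 to 0.14), with 41 above and 41 below 0, and that of all genes tested was also 0.00 (quartiles -0.25 to 0.34).

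Members differed little between the genotypes in size as well as in calls. Of the 82, 73 had a 95% interval of the log2 fold change that lay wholly within 0.5 of 0, and the median standard error was 0.09. Levels in every BcorΔE9-10 library exceeded both BcorWT libraries for 25 members, against 22.6% of all genes, and were below both for 12 members, against 20.3% of all genes. The other 45 members overlapped between the groups. An unadjusted p-value under 0.05 was reached by 8 of the 82 members and by 2973 of all 11766 genes. The plot of fold changes by subunit shows how narrowly most members lie around 0.

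**Figure D1:**
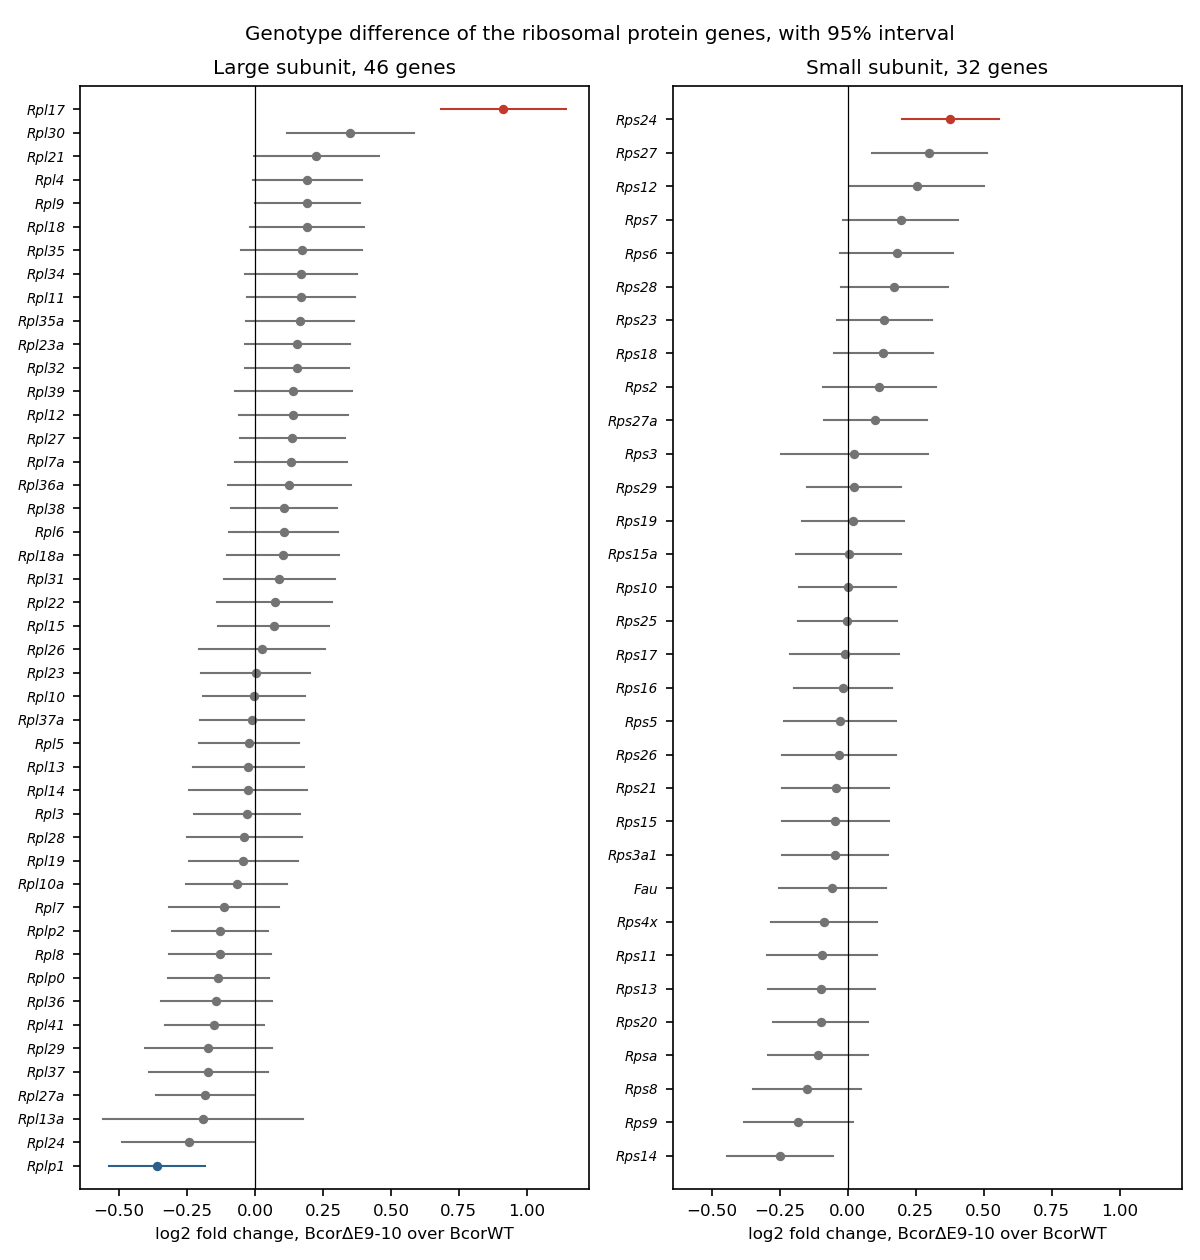
Log2 fold change of each large-subunit (46) and small-subunit (32) ribosomal protein gene, BcorΔE9-10 (n = 3) over BcorWT (n = 2), from limma, with the 95% interval as a horizontal line. Red marks genes called higher (Rpl17 and Rps24), blue the gene called lower (Rplp1), and grey genes that did not pass the threshold.

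Rpl17, a large-subunit protein at the exit of the peptide tunnel, had the highest fold change of the 82 tested members (chromosome 18, 75000477 to 75003381, mm10, plus strand). Its levels were 408, 436 and 380 CPM in BcorΔE9-10 and 205 and 227 CPM in BcorWT, so that the lowest mutant library stood well above the higher control. The log2 fold change was 0.91 (SE 0.109, limma adjusted p = 9.78e-05), or 1.88-fold. It was called in each of 20 alternative ways of processing, with log2 fold changes from 0.84 to 1.06.

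Rps24, a small-subunit protein needed for processing of the small-subunit RNA and mutated in some families with Diamond-Blackfan anaemia, followed (chromosome 14, 24487125 to 24496959, plus strand). Its levels were 1653, 1586 and 1545 CPM in BcorΔE9-10 and 1227 and 1228 CPM in BcorWT. The groups were clearly apart and the controls nearly equal. The log2 fold change was 0.38 (SE 0.085, limma adjusted p = 0.00986), or 29.9% higher. The call was lost without BcorΔE9-10 library 1 (adjusted p = 0.0622) and without BcorWT library 1 (adjusted p = 0.0554), with log2 fold changes of 0.35 and 0.37.

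Rplp1 was the 1 member called lower (chromosome 9, 61913284 to 61914542, minus strand). It encodes an acidic protein of the stalk, the mobile arm of the large subunit that recruits translation factors. Levels were 2715, 2704 and 2414 CPM in BcorΔE9-10 and 3459 and 3239 CPM in BcorWT, again with no overlap. The log2 fold change was -0.36 (SE 0.084, limma adjusted p = 0.0120), and the level fell by 22.2%. The call was lost without BcorΔE9-10 library 3 (adjusted p = 0.0569), without BcorWT library 1 (adjusted p = 0.0966), with total-count scaling (log2 fold change -0.22, adjusted p = 0.0573) and after removal of a trend on GC content (log2 fold change -0.24, adjusted p = 0.0850). It was also lost with that trend removed and replicate numbers as a block (log2 fold change -0.18, adjusted p = 0.234).

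The other stalk proteins did not pass the threshold. Rplp2, which pairs with Rplp1, read 3723, 3562 and 3583 CPM in BcorΔE9-10 and 4262 and 3682 CPM in BcorWT. These ranges overlap, and the log2 fold change was -0.13 (95% interval -0.30 to 0.05, adjusted p = 0.348). Rplp0, the anchor of the stalk, read 909, 880 and 877 CPM against 1007 and 946 CPM, which do not overlap. Its log2 fold change was -0.14 (95% interval -0.32 to 0.05, adjusted p = 0.355). All 3 stalk genes thus had negative values, 1 of them called.

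**Figure D2:**
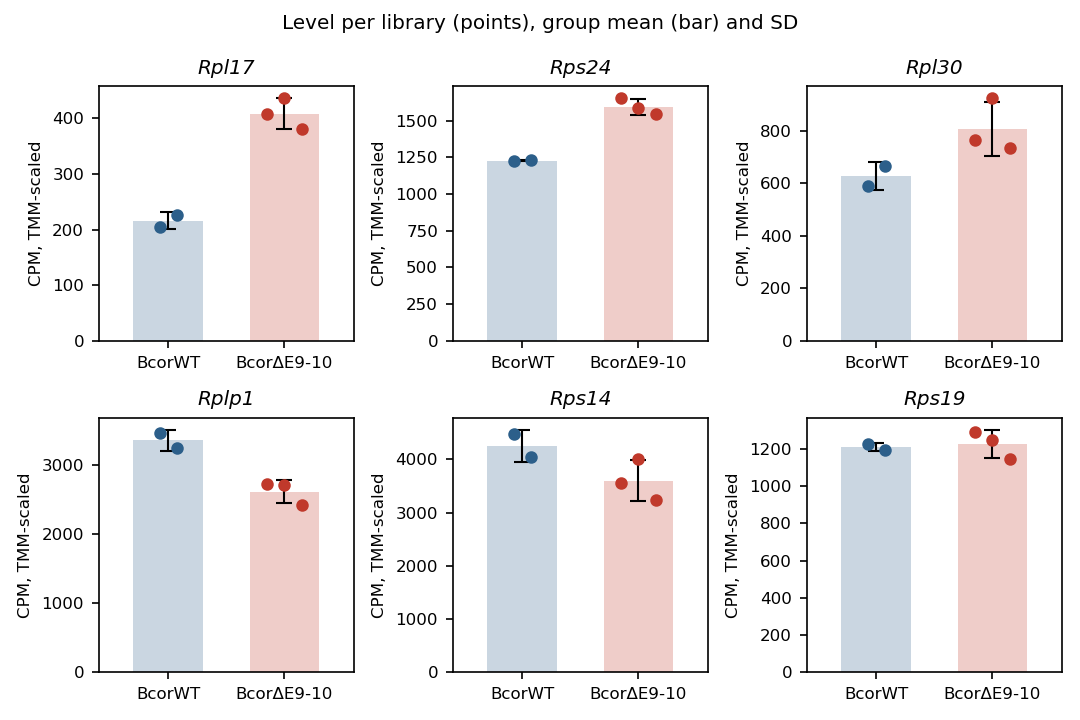
Level (CPM after TMM scaling, axis from 0) of 6 ribosomal protein genes in each BcorWT (blue points, n = 2) and BcorΔE9-10 (red points, n = 3) library, with the group mean as a bar and the SD as a line. Rpl17, Rps24 and Rplp1 were called; Rpl30 and Rps14 separated the groups without passing the threshold, and Rps19 overlapped.

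Among members that narrowly missed the threshold, Rpl30 and Rps27 were on the higher side and Rps14 on the lower. Rpl30, a large-subunit protein, read 763, 923 and 732 CPM in BcorΔE9-10 and 590 and 666 CPM in BcorWT, with a log2 fold change of 0.35 (SE 0.110, adjusted p = 0.0531). Rps27, a small-subunit zinc-finger protein, read 796, 884 and 735 CPM against 662 and 639 CPM, with a log2 fold change of 0.30 (SE 0.100, adjusted p = 0.0681). Neither gene overlapped between the groups. In both, BcorΔE9-10 library 2 was the highest of the 5. Over 20 alternatives Rpl30 was called in 7 and Rps27 in 5, and neither changed sign.

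Rps14, the gene named above for myelodysplastic syndrome, was also the most abundant member on average. Its levels were 3564, 3997 and 3234 CPM in BcorΔE9-10 and 4468 and 4039 CPM in BcorWT. The groups did not overlap, though the second mutant library lay just under the second control. The log2 fold change was -0.25 (95% interval -0.44 to -0.05, limma adjusted p = 0.0992). Without BcorΔE9-10 library 2 it was -0.32 and was called (adjusted p = 0.0191), while with the GC trend removed it was -0.12 (adjusted p = 0.441).

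The other members of highest mean level lay near 0. After Rps14, Rplp2 and Rplp1 came Rps23, of the decoding centre, and Rps29. Rps23 read 2852, 3155 and 2805 CPM in BcorΔE9-10 and 2676 and 2661 CPM in BcorWT, with a log2 fold change of 0.13 (adjusted p = 0.327). Rps29, a zinc-finger protein of the small subunit, read 2852, 2928 and 2653 CPM against 2847 and 2684 CPM, with a log2 fold change of 0.02 (95% interval -0.15 to 0.19, adjusted p = 0.904). Mean levels of the 78 members that are not paralogues ran from 30.8 to 3860 CPM with a median of 832 CPM, and each transcript gives 1 end, so these levels need no correction for length.

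By subunit, 1 of 46 large-subunit genes was higher and 1 lower, with a median log2 fold change of 0.05, and 1 of 32 small-subunit genes was higher, with a median of -0.01, against 6.02% of all genes higher and 4.09% lower. Of all 78, 72 had a log2 fold change of at most 0.25 in size. The 4 members on the X chromosome, where Bcor also lies, had values from -0.09 to 0.14 and limma called 0, with 0 at an unadjusted p under 0.05. edgeR and DESeq2 called 0 of them as well, and limma called 10.1% of all genes.

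The 19 genes of Diamond-Blackfan anaemia included 1 called gene, Rps24, and 15 of them had values above 0, with a median log2 fold change of 0.09. In 8 of them every BcorΔE9-10 library lay above both controls, and in 0 every one lay below, against 22.6% and 20.3% of all genes tested. Of all 11766 genes, 5931 had values above 0 and 10.1% were called. Rps19, the gene most often mutated in that disease, read 1291, 1248 and 1146 CPM in BcorΔE9-10 and 1224 and 1195 CPM in BcorWT. The groups overlapped and the log2 fold change was 0.02 (95% interval -0.17 to 0.21, adjusted p = 0.919).

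Rpl5 and Rpl11, which also hold Mdm2 away from p53 when ribosome assembly fails, were examined together. Rpl5 read 1285, 1405 and 1290 CPM in BcorΔE9-10 and 1369 and 1320 CPM in BcorWT, with a log2 fold change of -0.02 (95% interval -0.21 to 0.16, adjusted p = 0.909). Rpl11 read 1254, 1426 and 1199 CPM against 1159 and 1130 CPM, without overlap, with a log2 fold change of 0.17 (95% interval -0.03 to 0.37, adjusted p = 0.281). The interval of Rpl5 excludes a change of 0.25 in either direction, and that of Rpl11 does not exclude a rise of that size.

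Several members known for roles beyond the common core were examined by the same fit. Rpl22, whose loss affects T-cell development, had a log2 fold change of 0.07 (95% interval -0.14 to 0.28, adjusted p = 0.698). Rpl38, linked to translation of Hox messages, had 0.11 (95% interval -0.09 to 0.30, adjusted p = 0.505). Rps6, the phosphorylated target of the S6 kinases, had 0.18 (95% interval -0.03 to 0.39, adjusted p = 0.268). None of these passed the threshold. Rpsa, which carries the laminin receptor name, had -0.11 (95% interval -0.29 to 0.08, adjusted p = 0.463), and Fau, made as a fusion with a ubiquitin-like protein, had -0.06 (95% interval -0.25 to 0.14, adjusted p = 0.753).

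The paralogues, genes related in sequence to that of a core protein, were mostly at low levels. Rpl22l1, the partner of Rpl22, read 307, 367 and 258 CPM in BcorΔE9-10 and 251 and 263 CPM in BcorWT, with overlap and a log2 fold change of 0.26 (adjusted p = 0.237). Rps27l had 0.16 (adjusted p = 0.502) and Rpl7l1 -0.03 (adjusted p = 0.920). Rpl3l, a form of striated muscle, had the lowest value of any member, -1.02 (SE 0.769, adjusted p = 0.431), from 8, 17 and 5 counts in BcorΔE9-10 and 37 and 6 in BcorWT. That value rests on the 37 counts of BcorWT library 1, without which it was 0.21 (adjusted p = 0.948), and without BcorWT library 2 it was -2.25 and was called lower (adjusted p = 0.0204). Rps4l, an annotated transcribed pseudogene and so no member, was also on the list of paralogues and was called lower, with 10.5, 11.6 and 7.36 CPM against 15.3 and 23.7 CPM (log2 fold change -0.998, adjusted p = 0.0208). Rpl10l, a testis form, had 0 counts in all libraries, which allows up to 0.0813 CPM of unscaled counts, for counting error only. Rpl39l had 6, 9 and 2 counts in BcorΔE9-10 and 0 in BcorWT, and it did not pass the filter on low counts. Set against a floor of 3 counts over both controls, its 17 mutant counts gave a ratio of 3.74. That ratio bounds the control side only and leaves out the error of the mutant counts and the spread between libraries. It was 2.41 without BcorΔE9-10 library 2 and 1.81 and 1.93 without BcorWT libraries 1 and 2. With no filter Rpl39l was called higher.

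Ribosomal protein genes have many processed pseudogenes, so each member was also read with its copies. Named -ps copies existed for 61 members, up to 23 for 1 gene, and 42 of the tested members had at least 50% of the 30-base words of their last 300 bases in another annotated gene. Of these 42, 1 was higher and 1 lower, and of the 24 with under 5% shared words 1 was higher. In the same fit 6.02% of all genes were higher and 4.09% lower. A low share of words does not exclude reads in copies. Rpl31 had 0% of its end words in another gene but 77.9% of its family's counts in -ps copies. With the counts of each member and its -ps copies added, the same 3 members were called (2 higher, 1 lower), against 10% of all genes in that fit. With close copies added by sequence in place of names, a setting chosen after the data were seen, the same 3 were called, against 10.1%. The median log2 fold change of the members was then 0.03 and 0.02.

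Rpl17 had the largest part of its family's counts in named copies among the 3 called members, and 59.8% of its end words occurred in another gene. Of the counts of Rpl17 and its 10 -ps copies, 74.3% stood in the copies. The 5 copies tested were all higher in BcorΔE9-10, with log2 fold changes of 0.77 (Rpl17-ps4), 0.89 (Rpl17-ps5), 0.95 (Rpl17-ps8), 1.15 (Rpl17-ps9) and 3.44 (Rpl17-ps10). Rpl17-ps10, on chromosome 7, stood apart from the rest, with 109, 160 and 120 CPM against 7.38 and 18.5 CPM. Summed, the family had 1.05 on the log2 scale (SE 0.100, adjusted p = 2.45e-05). Since copies can hold reads of the member, they are no independent evidence.

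Rps24 and Rplp1 rest little on named copies by their counts, while a word share of 0% does not exclude reads in copies. Rps24 had 0% of its end words in another gene and 4.11% of its family's counts in -ps copies. Its 2 copies were higher too, Rps24-ps3 by 1.57 and Rps24-ps2 by 1.13 on the log2 scale, and the sum gave 0.42 (adjusted p = 0.00599). Rplp1 had 80.1% of its end words in another gene, more than Rpl17, with 0.0376% of its counts in its -ps copy and 25.5% of them in a close copy of another name. Its log2 fold change was -0.36 with either added. Rps27, which narrowly missed the threshold, had 100% of its end words in another gene. Of the counts of Rps27 and its close copy, 48.6% stood in the copy. Summed with it, the log2 fold change was 0.30 (limma adjusted p = 0.0555).

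**Figure D3:**
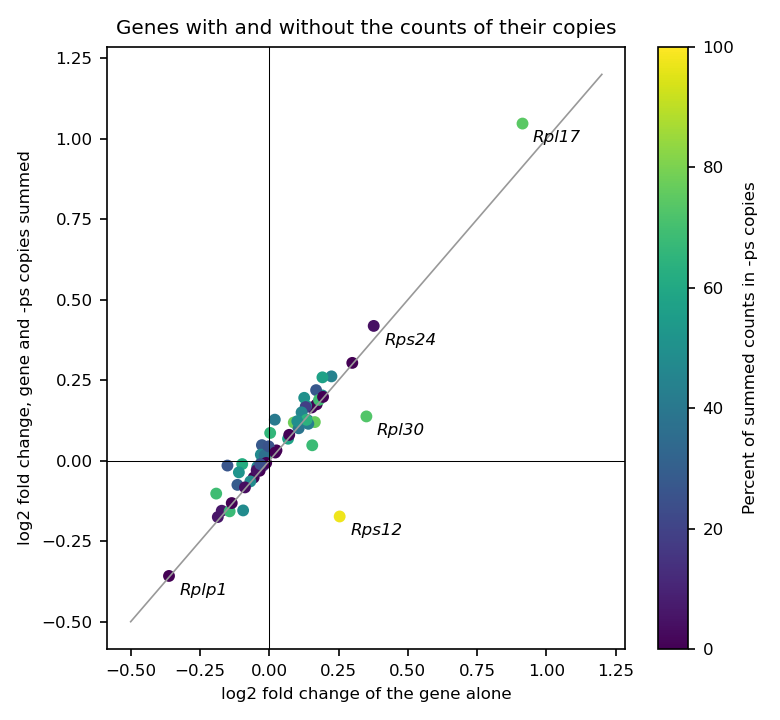
Log2 fold change (BcorΔE9-10 over BcorWT) of each member that has -ps copies, alone (horizontal) and with the counts of its copies added (vertical), coloured by the percent of summed counts that stood in copies. The grey line marks equal values; Rpl30 (0.35 alone, 0.14 summed) and Rps12 (0.25 alone, -0.17 summed) lie off it, and Rpl3l is not shown.

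For other members the copies mattered more. Rpl30 had 72.7% of its family's counts in -ps copies, and the summed log2 fold change was 0.14 (adjusted p = 0.425). Rps12, a small-subunit protein, had 97.4% in its 23 copies, and its log2 fold change of 0.25 alone became -0.17 (adjusted p = 0.180) when summed. More counts stood in the copies than in the gene for 22 members. Of the 168 copies tested, 20 were higher and 0 lower in BcorΔE9-10 (11.9%, against 10.1% of all genes, 6.02% higher and 4.09% lower), and 130 had values above 0, with a median of 0.13. The largest differences were in Rpl10-ps2 (4.30), Rps2-ps11 (3.68) and Rpl17-ps10 (3.44), followed by Rps2-ps4 (2.15), of which Rps2-ps11 had at most 1.77 CPM in any library.

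Before scaling, the members together took a larger part of the mutant libraries. They held 8.80%, 9.25% and 8.73% of all counts in BcorΔE9-10 and 8.07% and 8.12% in BcorWT, with a 95% Wilson interval of 8.78 to 8.81% for the first of these. The means were 8.93% ± 0.283 (SD, n = 3) and 8.09% ± 0.0336 (SD, n = 2), a difference of 0.831 percentage points. The 10 most abundant other genes, led by S100a8 and S100a9 of maturing neutrophils, took 23.5% ± 1.27 (SD, n = 3) and 28.6% ± 1.37 (SD, n = 2). The predicted gene Gm42418 (1722870 counts over all libraries) came close behind S100a9 (1732360). Actb, Tmsb4x and Hmgn2 were also among the 10. With these 10 genes left out of the total, the members held 11.7%, 12.1% and 11.2% against 11.5% and 11.2%, and the difference was 0.332 points with overlapping groups.

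**Figure D4:**
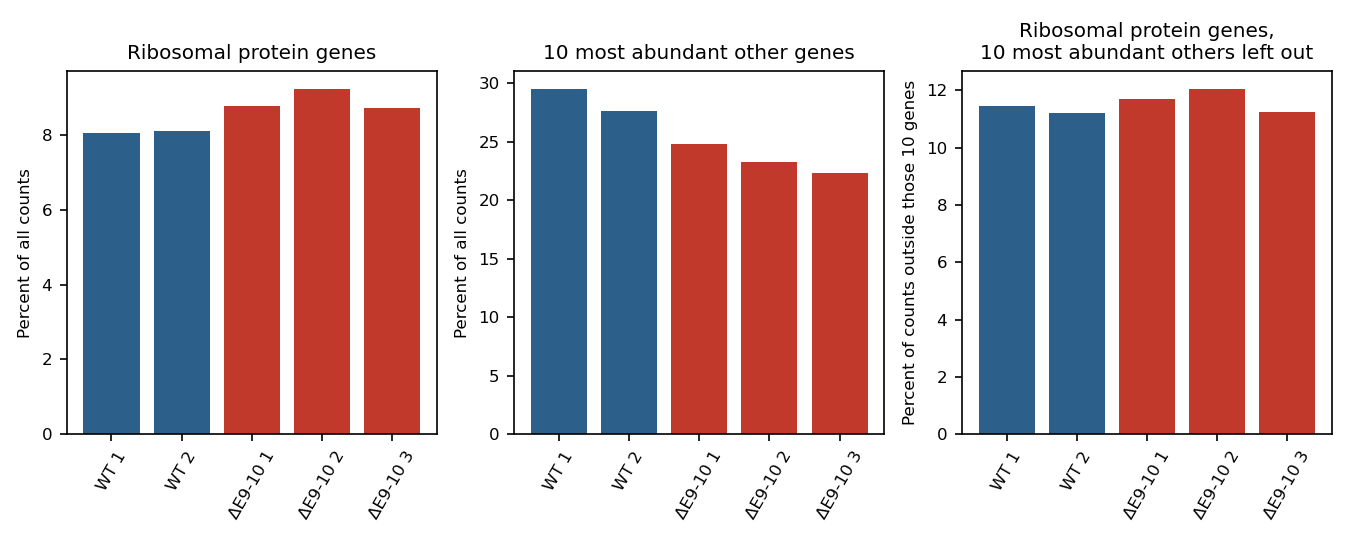
Percent of counts per library (axes from 0; blue BcorWT, red BcorΔE9-10) in the ribosomal protein genes, in the 10 most abundant other genes, and in the ribosomal protein genes once those 10 are left out of the total. The red bars stand above the blue ones in the first panel, below them in the second, and overlap them in the third.

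The number of members called depended on the scaling. Without TMM factors the median log2 fold change was 0.14 for the members and 0.15 for all genes, and 21 members were higher and 0 lower, beside 1210 genes higher and 197 lower in all (708 and 481 with TMM factors). Factors computed without the members and their copies gave a median of 0.00 and the same 3 calls.

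**Figure D5:**
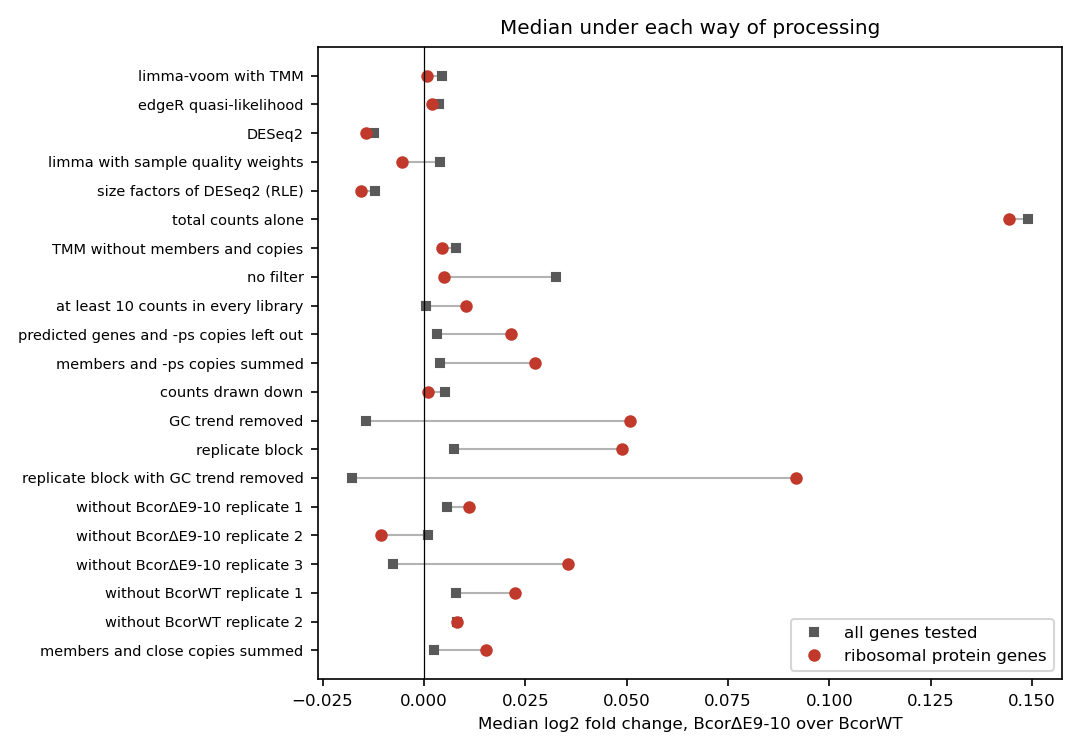
Median log2 fold change of the ribosomal protein genes (red circles) and of all genes tested (grey squares) under limma-voom with TMM and each of 20 alternatives. The medians lie between -0.02 and 0.15, the farthest pair from 0 coming from scaling by total counts alone (0.14 and 0.15).

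Variation among libraries was about as large as the differences of most members. Set against the mean of all 5 libraries, the median member lay at 0.02, 0.10 and -0.06 (log2) in the BcorΔE9-10 libraries and at -0.01 and -0.02 in BcorWT. BcorΔE9-10 libraries 2 and 3, of the same group, were thus farther apart, with a median log2 difference of -0.15 (library 3 over 2), than the groups. Across the 82 members the log2 fold change had a Spearman correlation of -0.30 with the GC content of the transcript end and -0.24 with the mean level, and across all genes tested it had -0.27 with GC content. Members share libraries and base composition, so these are descriptions.

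Other genes of translation were read in the same fit. Of 26 further TOP messages tested, 4 were higher and 2 lower (23.1%, against 10.1% of all genes and 22.2% of the other genes with at least 100 CPM), with a median log2 fold change of 0.11. Eef1a1, the elongation factor that delivers aminoacyl-tRNA, read 239, 293 and 276 CPM in BcorΔE9-10 and 82.2 and 111 CPM in BcorWT, a log2 fold change of 1.48 (SE 0.141, adjusted p = 2.07e-05). Btf3, of the nascent chain complex, rose by 0.65 (adjusted p = 0.00356) and Eif3m, an initiation factor subunit, by 0.56 (adjusted p = 0.0273), while the initiation helicase gene Eif4a2 was the fourth. Eif3d, another initiation factor subunit, had -0.41 (adjusted p = 0.0484) and Eef2, the translocation factor, -0.28 (adjusted p = 0.0497), both just past the threshold, and no gene of the list was called lower when any 1 library was left out. Eef1a1 is another gene with many copies, and its share of their reads was not tested. The transcript ends of the 4 higher genes had 32.7 to 35.7% GC, and those of Eef2 and Eif3d 51.3% and 55.3%. Fold changes fell with GC content across all genes, and the part of this trend in the calls of the list was not tested.

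Genes that control or assist the ribosomal proteins were read beside the 10.1% of all genes that were called. Of 18 genes of mTORC1 and its TOP control tested, 2 had an unadjusted p under 0.05, and limma called 0 higher and 1 lower (5.56%), Mlst8, a subunit of that complex, at -0.46 (SE 0.116, adjusted p = 0.0189). Of 9 chaperones of ribosomal proteins, limma called 0, with 3 at an unadjusted p under 0.05, and edgeR and DESeq2 each called 1 higher. Of 9 genes around p53 and its release from Mdm2 by ribosomal proteins, 4 had an unadjusted p under 0.05, and limma called 1 higher and 0 lower (11.1%). Trp53 was the one called, with 9.93, 7.51 and 9.47 CPM against 3.69 and 2.37 CPM (log2 fold change 1.58, adjusted p = 0.0173), a call lost when either control was left out. Mdm2 (-0.30, adjusted p = 0.141), Mdm4 (-0.29, adjusted p = 0.173) and Sesn2 (-1.25, adjusted p = 0.0625) were the other three, each below both controls in every BcorΔE9-10 library. Of 77 mitochondrial ribosomal protein genes, encoded in the nucleus for the separate ribosome of mitochondria, 1 was higher, Mrps28, with 9.57, 18.8 and 12.6 CPM against 0.71 and 2.07 CPM (adjusted p = 0.00461), and the median was -0.12.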

How the data were processed

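QuantSeq libraries of sorted KL cells were sequenced as 3′ ends. Per the labels, the submitters' processing notes name bcl2fastq (2.17.1.14), FastQC, cutadapt (1.7), HISAT2, featureCounts of Subread (1.5.0-p3) and limma, with the build GRCm38/mm10. The authors deposited raw read counts for each gene, with no normalisation. Options for strand and for reads that align to several places are not given in the sources used here, so reads of near-identical copies may be divided among them or dropped.

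Symbols were given to 52403 of 52550 genes, which were all found in GENCODE M21. Genes were filtered with filterByExpr of edgeR 4.0.16 (minimum count 10, minimum total count 15) and tested two-sided with limma 3.58.1 on voom values, in R 4.3.3, with DESeq2 1.42.0 and the quasi-likelihood test of edgeR among the alternatives. Within a group, pairs of libraries gave 5.69 to 10.8 chi-square units per gene, where 1 is expected from counting noise, and each library was kept as its own replicate. Shares of counts have Wilson intervals that cover counting error only, since reads carried no molecular identifier in these counts. A close copy is a gene that holds at least 50% of the 30-base words in the last 300 bases of a member. GC correction removed a lowess trend (span 0.3) from each library. The procedures were tested on simulated data.

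Genes named were the called members, the 5 most abundant, the 3 highest and 3 lowest fold changes, a fixed list of others, and called genes of each further list (at most 3 in each direction). An item that the rule would name is not reported here. Eif4a2, Rps27, Rps12, Mdm2, Mdm4, Sesn2 and Rpl39l were named outside that rule, after their values were seen. The members and lists were chosen with earlier results of these data known.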

Additional observations from a re-analysis of the deposited data

How the results depend on the processing

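Rpl17 was called in each of the 20 alternatives, Rps24 in 18 and Rplp1 in 15. edgeR, DESeq2, sample quality weights, DESeq2 size factors, TMM factors without the members, counts drawn down to the smallest library and both ways of adding copies called the same 3 members. A filter of at least 10 counts in every library gave 3 higher and 1 lower (722 and 481 of all 10180 genes). Leaving out predicted genes and -ps copies also gave 3 higher and 1 lower (595 and 440 of all 10315 genes). Both added Rpl30. Total-count scaling called 21 higher and 0 lower, with a median of 0.14; there Rplp1 had -0.22 (limma adjusted p = 0.0573) and the median of all genes was 0.15. No filter on low counts gave 5 higher and 2 lower (790 and 500 of all 19399 genes). Removing the GC trend gave 3 higher and 0 lower (557 and 453 of all 11766 genes). The replicate block gave 5 higher and 1 lower (891 and 563 of all genes), adding Rpl22l1, Rpl30 and Rps27, and the replicate block with the GC trend removed gave 8 higher and 0 lower of 82 members (717 and 541 of all 11766 genes), a larger share of members than of all genes on the higher side, with a median of 0.092, Rps14 at -0.053 and Rplp1 at -0.18. Same-numbered libraries deviated with correlations of 0.08 and 0.08. With 2 controls, whose deviations mirror each other, these values cannot decide whether the numbers mark pairs. Leaving out 1 BcorΔE9-10 library at a time gave 1 to 2 members higher and 0 to 2 lower. In those fits 488 to 636 of all genes were higher and 235 to 288 lower. With any 1 of the 5 libraries left out the median of the members was -0.01 to 0.04, with fewer samples in each fit. The difference in share of counts was 1.57 points with -ps copies added and 0.332 points without the 10 most abundant other genes. Members with values above 0 numbered 41 of 82 at first, 71 with total counts and 55 with the GC trend removed. Among the members given by value in the report, those that changed sign were not called where they did so. With total counts these were Rplp2 (0.015), Rplp0 (0.0090), Rpl5 (0.12), Rpsa (0.034), Fau (0.088) and Rpl7l1 (0.11). With the GC trend removed they were Rps23 (-0.10), Fau (0.069) and Rpl7l1 (0.048), and with the block as well Rps23 (-0.067), Fau (0.096) and Rpl7l1 (0.056). Rps12 had -0.173 with -ps copies added and -0.166 with close copies added. With 1 library left out the ranges were -0.016 to 0.058 for Rps19, -0.063 to 0.0026 for Rpl5, -0.29 to 0.21 for Rpl7l1, -0.016 to 0.059 for Rps29, -2.25 to 0.21 for Rpl3l (called lower at -2.25) and -0.13 to 0.015 for Fau. Apart from what each alternative changes by construction, the cause was not tested. With 2 controls, a fit without 1 of them assumes that the lone control varies like the mutant group.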
